A study of Salmo salar with 58 samples.

Results

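A set of 100 liver genes of Atlantic salmon (Salmo salar) was described here, chosen because their levels rose and fell with 3 genes of the red cell lineage from one library to the next inside each treatment group. The 3 reference genes were epor, the erythropoietin receptor, tal1, a transcription factor of early blood formation, and ank1a, an ankyrin that anchors the red cell membrane to its skeleton. Members were selected on their Pearson r to the mean of these 3 genes over 29 liver libraries, on log2 of the deposited value plus 2, after the mean of each of the 5 treatment groups had been subtracted. The liver table held 25157 rows that reached 10 in at least 5 libraries, and 25147 of them could become members, once the reference genes and gata1, nfe2, cahz, rhag, alas2, cpox and ppox had been set aside. The 100 with the highest r were taken.

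The fish were sampled 12 h after an acute in vivo exposure, and polyadenylated RNA of liver and distal intestine was sequenced. Each tissue had 6 control libraries (Ctrl), 6 of low and 6 of high enniatin B (ENNB_Lo, ENNB_Hi), and 5 of low and 6 of high beauvericin (BEA_Lo, BEA_Hi), 58 libraries in all. Strain, age, vehicle and the amount behind each dose word are not stated in the labels, and a dose word may stand for different amounts of the 2 toxins. Whether each replicate number is its own fish is not stated either, so p-values measure the spread between these samples, which may be technical.

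Fish red cells keep their nucleus and go on carrying messenger RNA in the circulation, so blood held in a tissue contributes transcripts to its RNA. Developing red cells receive erythropoietin through its receptor and use GATA1 and TAL1 to switch on genes for globins, heme synthesis and the membrane skeleton. In bulk tissue, fewer red cells and less RNA of these genes per cell cannot be told apart.

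Depth was 30.7 to 61.7 M assigned reads per liver library and 23.3 to 40.6 M per intestine library. The deepest liver libraries were replicates 3 and 1 of high beauvericin, with 61.7 and 57.8 M. Only 31 of 2900 member values in liver rested on fewer than 10 reads. In intestine, controls 5 and 6 stood apart from the other 27 libraries, with normalized counts of 1.4 and 1.8 for npc1l1, the cholesterol uptake protein of enterocytes, against 3719 to 21696 elsewhere. Intestine results are therefore given with and without them. Within groups, the mean level of the members had an r of 0.064 with depth over the 29 liver libraries.

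Because the rule used r, the values of r are a description and were not tested. Among members r ran from 0.591 to 0.883 with a median of 0.665, whereas the median over all rows was -0.011 and the 99th percentile 0.488. The reference genes themselves followed each other with r of 0.79 between epor and ank1a, 0.55 between tal1 and ank1a and 0.50 between epor and tal1. The last members inside the limit were LOC106592566 at 0.5929 and LOC106603296 at 0.5908. The first genes outside it were grinaa at 0.5908 and LOC106588405 at 0.5905. Members also varied more than most genes, with a median within-group SD of 0.49 on the log2 scale against 0.36 over all rows.

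Of the 100 members, 26 have a symbol in the salmon reference, 63 have only a LOC number (3 of these with a synonym) and 11 are not in that reference. The gene with the highest r, LOC106585259 at 0.883, has no name. Next came addb at 0.877, whose symbol stands for beta-adducin, a protein that joins spectrin to actin under the red cell membrane. Other named members near the top were tmem43, a protein of the inner nuclear membrane, at 0.813, selja, a selenoprotein known from fish, at 0.808, and hdr, the hematopoietic death receptor known from zebrafish, at 0.801. The mitochondrial membrane protein apoob followed at 0.783, the purine nucleotidase 5ntc at 0.778 and lpin2, a phosphatidate phosphatase of lipid synthesis, at 0.776. The serine protease tssp had 0.749 and fam78ab 0.701. The lower ranks held adb4c, a beta-adrenergic receptor known from turkey, at 0.698, and nmes1 at 0.675. There were also hif1al2, a relative of hypoxia-inducible factor 1 alpha, at 0.665, ripor3 at 0.654, the forkhead factor foxo3b at 0.633, and ubxn4, a protein of endoplasmic reticulum quality control, at 0.627. The heat shock cognate protein hsc70 had 0.626, the row with the synonym klf4, LOC100217346, 0.621 and kiaa1191 0.621.

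Members within 6 genes of each other in the reference formed 4 stretches, of 7, 4, 2 and 2 members. In the longest, 7 members lie next to one another without a gap, and among them are LOC100136576 with the synonym hbb and LOC100136584 with the synonym hbb1, beta chains of hemoglobin. Their r to the reference genes ran from 0.632 to 0.753. The next gene of the row, LOC101448011, also carries the synonym hbb1 and missed the set at r = 0.544, and the embryonic alpha globin hbae4 missed it at 0.479. The median r between pairs of these 7 members was 0.92, against 0.51 between pairs of all members. A second stretch held 4 unnamed members, LOC106607371, LOC106607372, LOC106607373 and LOC106607375, with r of 0.701 to 0.780. The pairs were LOC106564359 with LOC106595779 and LOC106575454 with LOC106575483, all without a name. Globin genes of salmon exist in near-identical copies, and how the counting split reads between such copies is not known, so values of single copies are uncertain.

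Of the genes that the rule set aside, gata1 (r = 0.86), cahz, the carbonic anhydrase of red cells (0.74), and alas2, the first enzyme of heme synthesis in red cells (0.69), would have been members. The other 4, cpox, rhag, ppox and nfe2, ranked 1737, 2333, 2879 and 5334 over all rows, with r of 0.30, 0.27, 0.24 and 0.16.

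Membership rested in part on single libraries. When each of the 29 liver libraries was left out of the selection, 60 members were chosen every time and 16 were lost 5 times or more. The fewest members, 76, were kept without replicate 5 of high enniatin B, the library with the highest member mean of all. Among the members lost most often were jak1, a cytokine receptor kinase, the actin filament cap tmod4, the adhesion protein lrrc4bb and mknk1, a kinase that acts on the translation factor eIF4E. They were kept in 14, 11, 12 and 11 of 29 selections. The globin LOC100136576, addb and LOC106573055 were kept in 29 of 29.

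Lists of known cell type genes placed the set among red cell genes in part only. They were matched by symbol, hemoglobin also by synonym, and were drawn up with earlier results of these data known. Of 4 measured hemoglobin rows, 2 were members and 3 had r over 0.5 (median 0.62). Of 6 membrane and skeleton genes other than ank1a, 3 were members, namely the Rh protein rhd, the Kell blood group peptidase kel and tmod4. Of the 6, 4 had r over 0.5 (median 0.60). Cahz and rhag, also among the 6, had been set aside by the rule and could not be members. The member addb, named above for its place under the red cell membrane, is not on this list. Of 11 heme and iron genes, only alas2 and hmbsb (0.546), an enzyme of the middle of the heme pathway, had r over 0.5, and the median was 0.25. Of 12 transcription and signalling genes other than epor and tal1, only gata1 had r over 0.5, with a median of -0.02. Alas2, cpox and ppox on the heme list and gata1 and nfe2 on the transcription list could not be members either. None of 5 genes for red cell enzymes and organelle clearance had r over 0.5 (median -0.03).

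Markers of other cells of liver and blood gave no members. These lists hold only genes with a symbol. The 63 members with only a LOC number and the 11 not in the reference could therefore not match them. The medians of r were -0.05 for 3 T and B cell genes, -0.10 for 12 neutrophil and macrophage genes, 0.00 for 6 hepatocyte genes, 0.19 for 4 exocrine pancreas genes and -0.07 for 14 cell cycle genes. Among 4 thrombocyte genes, with nfe2 also on the transcription and signalling list, the median was 0.13. The highest was gp9, a platelet surface glycoprotein, at 0.53. Endothelial genes ran the other way in liver, with a median of -0.54. The clotting factor carrier vwf had r = -0.68, the VEGF receptor kdr -0.61 and the scavenger receptor stab1 -0.54, while the VEGF receptor flt1 (0.12) and stab2 (0.10) did not follow. The lowest r of any row in liver was -0.76. The negative sign of the endothelial genes was not seen over 27 intestine libraries, where their median r was 0.27. There vwf had 0.27, kdr 0.31, stab1 0.39, flt1 0.02 and stab2 0.23.

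In the liver of exposed fish the set stood lower than in control, and most clearly after low beauvericin. The mean of the 100 genes on the log2 scale was 8.52 ± 0.25 in control (SD, n = 6) and ran from 8.11 to 8.87. It was 7.65 ± 0.20 after low beauvericin (n = 5), where the libraries read 7.74, 7.35, 7.84, 7.57 and 7.76. All 5 lay below the lowest control. It was 7.83 ± 0.34 after low enniatin B (n = 6, 7.26 to 8.16), 8.04 ± 0.38 after high beauvericin (n = 6, 7.42 to 8.58) and 8.10 ± 0.54 after high enniatin B (n = 6, 7.42 to 8.95). These 3 groups overlapped control. Replicate 5 of high enniatin B, at 8.95, was the highest liver library of all.

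**Figure D1:**
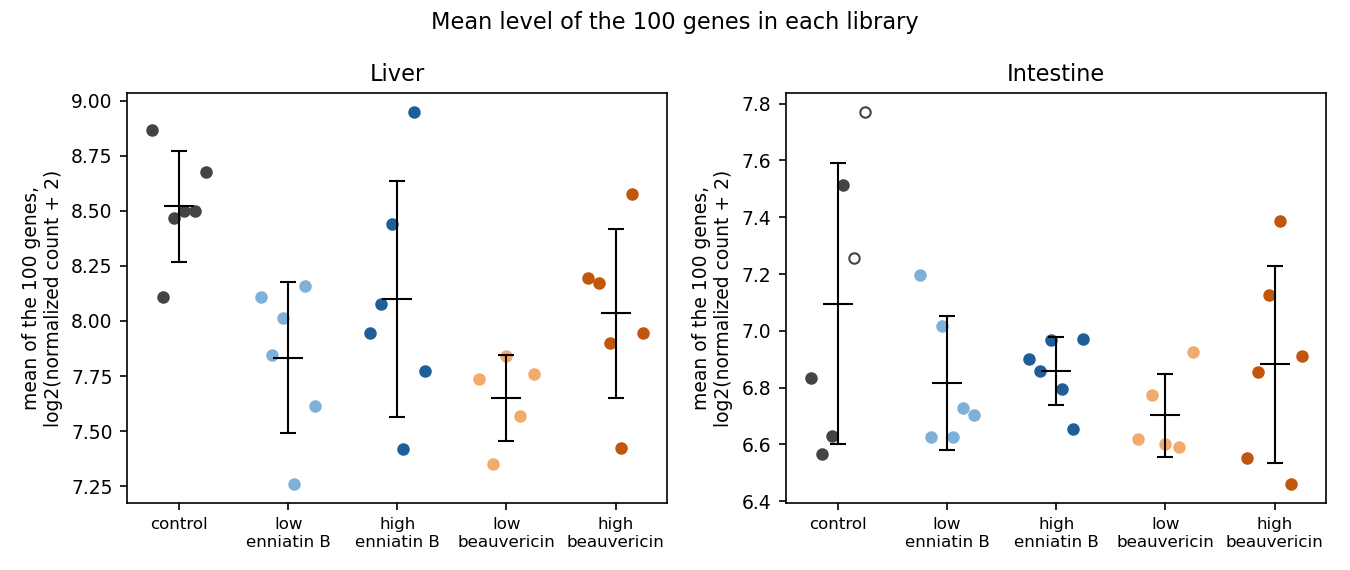
Mean of the 100 genes in log2(normalized count + 2), on the vertical axis, in each library of liver (left) and intestine (right) by treatment group. Points are libraries, the short bar is the group mean and the whiskers are 1 SD. Open circles mark intestine controls 5 and 6. In liver the 5 libraries of low beauvericin (7.35 to 7.84) lie below the 6 controls (8.11 to 8.87), and the other groups overlap control.

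The subtraction of group means keeps the differences between groups out of r. The members, however, were chosen with earlier results of these data known. The reference genes were themselves lower after low beauvericin, with log2 differences of -1.30 for epor, -1.39 for tal1 and -1.16 for ank1a. Genes that vary with them within groups may share these differences, so the members' values are not independent of that choice. The members still vary together from library to library, so their estimates share the same chance differences between groups, and 100 genes are not 100 separate results. The 4 comparisons with control also share the same 6 controls. With limma on all liver rows, the members' median log2 difference from control was -0.96 after low beauvericin, -0.79 after low enniatin B, -0.51 after high beauvericin and -0.46 after high enniatin B. The median over all 25157 rows was 0.01 or less from 0 in each comparison. Estimates were below 0 for 93, 93, 93 and 87 of the 100 members, against 49.1%, 49.4%, 48.9% and 48.7% of all rows, in the same order.

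**Figure D2:**
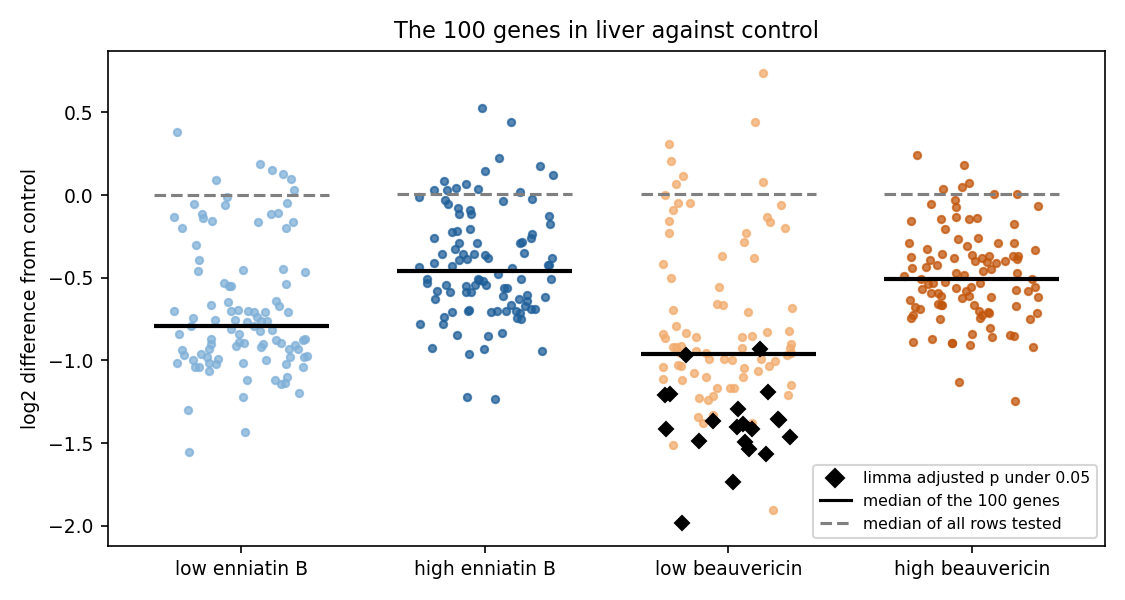
Log2 difference from control in liver, on the vertical axis, for each of the 100 genes in each exposed group. Black diamonds are genes past a limma adjusted p of 0.05, the solid line is the median of the 100 genes and the dashed line the median of all rows tested. The 20 diamonds stand in low beauvericin, and the medians of the 100 genes lie between -0.96 and -0.46.

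After low beauvericin 20 members were lower and 0 higher at a limma adjusted p of 0.05 over all 25157 rows, of which 0.127% were called in either direction and 0.107% lower. Of the 27 rows called lower 20 were members, and 2 more were the reference genes epor (-1.30, adjusted p = 0.035) and tal1 (-1.39, adjusted p = 0.045). These 2 helped define the set, so their calls do not add to the members' count. An unadjusted p under 0.05 was seen for 72 members, against 8.27% of all rows. Groups that did not overlap, with each exposed library below every control, were seen for 42 members, against 0.493% of all rows.

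The smallest p belonged to LOC106573055, an unnamed gene. Its normalized counts were 446, 648 and 798 in the lowest, median and highest control, and 196, 203, 284, 230.1 and 245 in the 5 low beauvericin libraries. The groups did not overlap, and the log2 difference was -1.46 ± 0.21 (SE, 95% interval -1.89 to -1.03, limma adjusted p = 0.0028). In low enniatin B it had 274 to 457, in high enniatin B 198 to 650.1 and in high beauvericin 306 to 564.

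LOC106585259, the gene with the highest r, had 549.6, 713 and 979 in control and 259, 255, 309, 219 and 359.5 after low beauvericin. Here too each exposed library lay below every control (-1.40 ± 0.23, limma adjusted p = 0.011). LOC100196543 had 261, 404 and 530.2 in control and 171, 105, 166, 162 and 184 after exposure (-1.35 ± 0.23, limma adjusted p = 0.014). GeneID106570025, which is not in the reference, had 1094, 1589 and 1922 in control and 758, 437, 666, 523 and 603 after exposure (-1.38 ± 0.24, limma adjusted p = 0.015). LOC106589417 had 151, 207 and 267 in control and 84.6, 64.6, 51.7, 82.8 and 70.1 after exposure (-1.54 ± 0.28, limma adjusted p = 0.015). None of these 4 overlapped control.

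The members past the threshold that have a symbol were 3. Ripor3 had 298, 315 and 369 in control and 137, 107, 89.3, 156 and 148 after low beauvericin (-1.37 ± 0.25, limma adjusted p = 0.017). Tmem43 fell by 0.93 (± 0.18, limma adjusted p = 0.022) and 5ntc fell by 1.57 (± 0.31, limma adjusted p = 0.028). Over the 20 members log2 differences ran from -1.98 to -0.93 and adjusted p from 0.0028 to 0.048. Of the 20, 12 stood among the 25 members with the highest r, 4 in ranks 26 to 50 and 4 in the lower ranks. In blocks of 25 from the top, the median differences were -1.19, -0.99, -0.86 and -0.28. The ranks come from the r that the rule used. Members closer to the reference genes also share more of their chance differences between groups. The order by rank is therefore a description and was not tested.

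**Figure D3:**
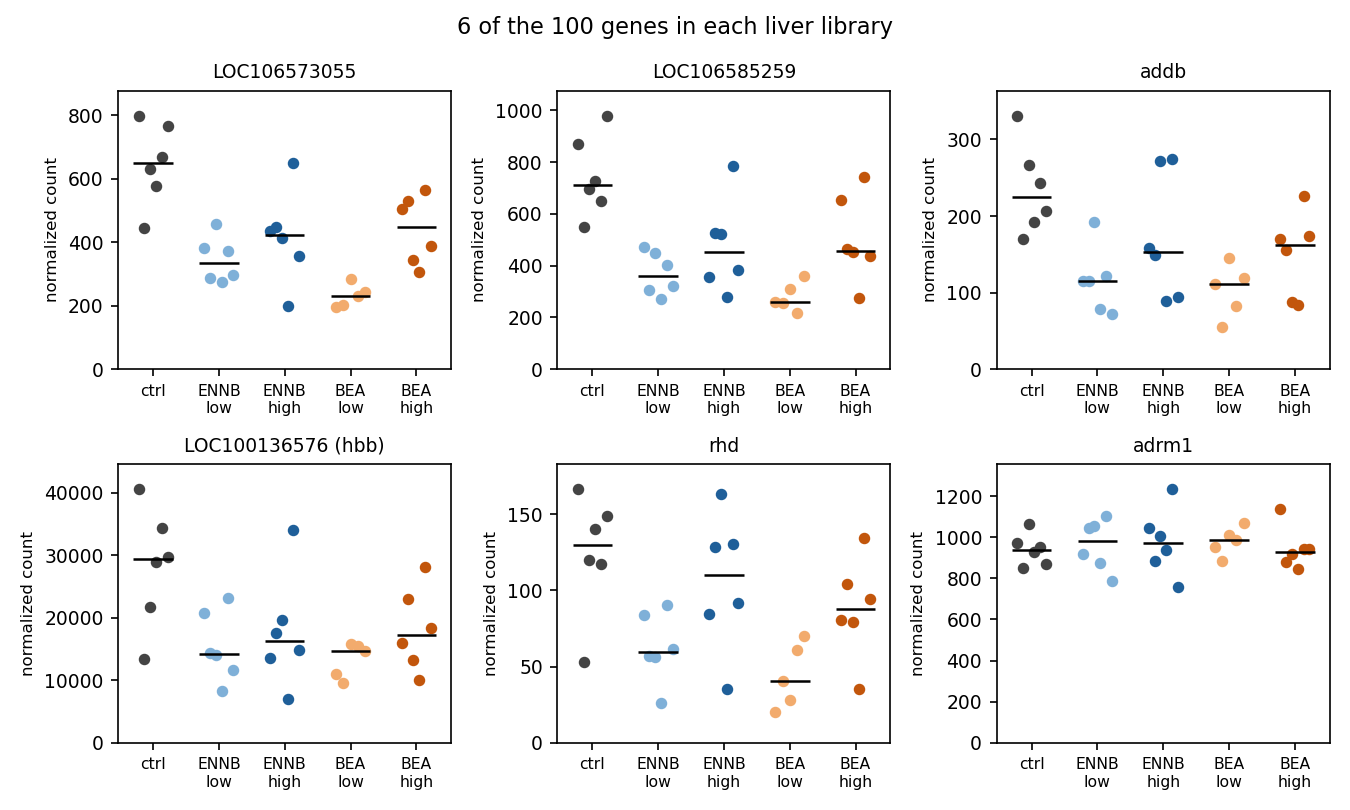
Normalized counts of 6 of the 100 genes, on vertical axes that start at 0, in each liver library of control (ctrl), enniatin B (ENNB) and beauvericin (BEA). Points are libraries and bars are medians. For LOC106573055 the 5 libraries of low beauvericin (196 to 284) lie below all controls (446 or more), whereas those of adrm1 (886 to 1067) overlap control (850.3 to 1063).

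The call count rested on few libraries, while the members' median did not. Without control 1 there was 1 member past the threshold, without replicate 2 of low beauvericin 2, without control 6 7, without replicates 4 or 5 of low beauvericin 8 and 9, and without controls 5, 3 or 4 there were 10, 11 and 12. Over all 29 such fits the count ran from 1 to 25 and the members' median from -1.10 to -0.89. The shares of all rows called in these fits are not given here, so their counts cannot be set against all rows. On recovered reads, edgeR gave 14 members, DESeq2 37 and voom 9, where these tools called 0.0835%, 0.318% and 0.0676% of all rows.

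None of the known red cell genes among the members passed. Their log2 differences ran from -1.51 for rhd to -0.68 for tmod4. The globin LOC100136576 had 13418, 29316 and 40506 normalized counts in control and 10999.6, 9584, 15775, 15467 and 14611 after low beauvericin. The groups overlapped through the lowest control (-1.03 ± 0.33, limma adjusted p = 0.42). LOC100136584 had 5527, 9858 and 13390.1 in control and 5081, 3904, 5527, 4716 and 4470.4 after exposure, so that the highest exposed library met the lowest control (-0.99 ± 0.30, limma adjusted p = 0.36). The 7 neighbouring members with these globins had log2 differences of -1.03 to -0.70, and the 4 neighbours around LOC106607372 of -1.21 to -0.92, with no limma adjusted p below 0.36. Rhd had 53.2, 130.0 and 166 in control and 20.3, 40.3, 28.2, 60.7 and 70.1 after exposure (-1.51 ± 0.37, limma adjusted p = 0.13). Kel had 140.2 to 297 in control and 85.5 to 125 after exposure, without overlap (-0.99 ± 0.35, limma adjusted p = 0.46). Tmod4 overlapped widely, with 49.2 to 339.9 in control and 28.8 to 105 after exposure (-0.68 ± 0.45). Addb had 170.3, 225 and 331 in control and 112, 54.9, 146, 82.8 and 119 after exposure, again without overlap (-1.22 ± 0.31, limma adjusted p = 0.15).

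Counted by list after low beauvericin, 0 of 4 hemoglobin genes passed (median -1.02), 0 of 7 membrane genes (median -0.94), 0 of 11 heme and iron genes (median 0.04) and 2 of 14 transcription and signalling genes, epor and tal1 (median -0.11). Both are reference genes, and the 7 membrane genes include the reference gene ank1a. No other gene of these 4 lists passed. The heme enzyme hmbsb, which followed the reference genes within groups, had a higher estimate (0.65 ± 0.26, limma adjusted p = 0.53). The median was -0.45 for the 4 thrombocyte genes, -0.20 for cell cycle genes, -0.08 for red cell enzymes, -0.06 for T and B cell genes and for endothelial genes, 0.07 for neutrophil and macrophage genes, 0.17 for hepatocyte genes and 0.26 for exocrine pancreas genes. No gene of these 8 lists passed. The thrombocyte list includes nfe2 (-0.55 ± 0.21), which the rule set aside and which is also on the transcription and signalling list. The summed normalized counts of the thrombocyte list were 884 to 1089 in control and 758 to 813 after low beauvericin, and those of the hemoglobin list 19998 to 55459 and 14079 to 22008. The endothelial sum was 1632 to 1962 in control and 1639 to 2053 after exposure. In liver the progenitor receptor kita, the cyclin ccnb2, the T cell gene cd8a and the pancreatic enzymes ctrl, ela2 and cpb1 reached 0 in their lowest library. The part of these cell types in the result was not tested.

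**Figure D4:**
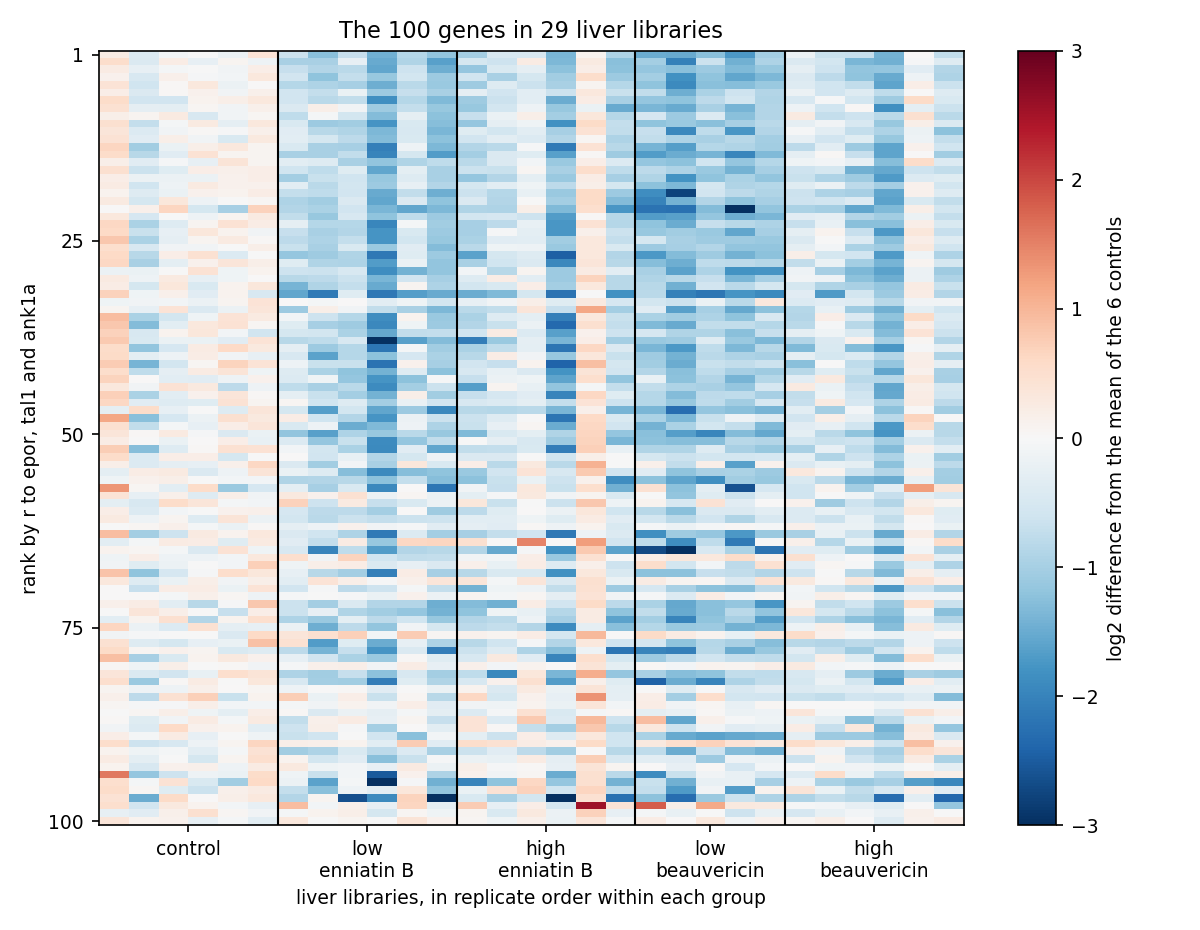
Log2 difference of each library from the mean of the 6 controls, as colour, for the 100 genes (rows, ordered by r from 1 to 100) in the 29 liver libraries (columns, by group). Blue columns are libraries in which most of the 100 genes are low, such as replicate 4 of low enniatin B (mean 7.26), and the red column in high enniatin B is replicate 5 (mean 8.95). The lowest ranks follow the pattern less closely.

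After low enniatin B no member passed limma, among 0% of all rows called, and 66 had an unadjusted p under 0.05, against 3.64% of all rows. DESeq2 on recovered reads gave 3 members, where it called 0.0199% of all rows, and edgeR and voom gave 0 members and called 0% of rows. Each exposed library lay below every control for 18 members, against 0.163% of all rows. The smallest p-values were those of LOC106602333 (-0.66 ± 0.14), LOC106587020 (-0.998 ± 0.213) and LOC106585259 (-1.02 ± 0.22), each at a limma adjusted p of 0.35. LOC106587020 had 431, 499 and 607 normalized counts in control and 173, 287 and 336 after low enniatin B, so the groups did not overlap. The globin LOC100136576 had 8274, 14150.2 and 23204, which overlaps control.

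The high doses gave smaller estimates and wider spread. After high enniatin B 0 members passed limma (0% of all rows), and 0 members had groups that did not overlap (0.0477% of all rows). An unadjusted p under 0.05 was seen for 25, against 2.77% of all rows, and edgeR, DESeq2 and voom gave 0 members. The shares of all rows that these 3 tools called are not given here for the high doses. The smallest p was that of LOC100217346, the row with the synonym klf4 (-0.96 ± 0.27), followed by LOC106587409 (-1.23 ± 0.35) and LOC106573055 (-0.69 ± 0.20). The members' median was -0.62 without replicate 5 of high enniatin B and -0.29 without its replicate 4, the ends of the range over all libraries left out. After high beauvericin 0 members passed limma (0% of all rows), 37 had an unadjusted p under 0.05 (9.44% of all rows), the other tools gave 0, and 5 members had groups that did not overlap (0.219% of all rows). The smallest p-values were those of LOC106573466 (-0.86 ± 0.22, limma adjusted p = 0.24), lpin2 (-0.92 ± 0.24, limma adjusted p = 0.26) and ripor3 (-0.91 ± 0.24, limma adjusted p = 0.26).

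In these 3 groups no gene of any list passed. After low enniatin B, high enniatin B and high beauvericin, the hemoglobin list had medians of -0.95, -0.65 and -0.71 and the membrane list of -0.78, -0.29 and -0.40. The thrombocyte list had -0.37, -0.06 and -0.26. The exocrine pancreas list had estimates on the other side of 0, with medians of 0.87, 1.64 and 2.08 and 4 of 4 estimates above 0 in each. Its summed normalized counts were low throughout, at 3.99 to 79.1 in control, 24.9 to 115 and 24.2 to 195 after low and high enniatin B and 22.9 to 523 after high beauvericin, and overlapped control. The other 8 lists had medians between -0.34 and 0.27. The part of the pancreas genes in the members' values was not tested.

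For the mean of the 4 exposed groups against control, 7 members were lower, among 0.0398% of rows called, all of them lower, and 70 had an unadjusted p under 0.05, against 5.95% of rows. On recovered reads edgeR gave 6, DESeq2 15 and voom 11 members, where they called 0.0358%, 0.0914% and 0.0596% of rows. The 7 were LOC106573055 (-0.90 ± 0.16), LOC106585259, LOC106587020 (-0.91 ± 0.17), ripor3 (-0.997 ± 0.192) and LOC106573466 (-0.89 ± 0.17), followed by LOC100196543 and the row GeneID106570025. Limma adjusted p was 0.046 to 0.050 for these 7. The count sat close to the threshold. It fell to 0 without any 1 of 19 libraries, to 1 without control 2 or replicate 4 of high enniatin B, to 2 without replicate 5 of low beauvericin, and reached 13 without replicate 5 of high enniatin B. The 19 were controls 1, 3, 4, 5 and 6, replicates 1, 2, 4 and 6 of low enniatin B, 1, 2 and 6 of high enniatin B, 1, 2, 3 and 4 of low beauvericin and 2, 3 and 6 of high beauvericin. The members' median was -0.77 to -0.62 over these fits and -0.70 with all libraries. Shares of all rows called without single libraries are not given here, so those counts cannot be set against all rows.

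Enniatin B and beauvericin are related cyclic hexadepsipeptides that differ in the N-methylated amino acid, which is valine in enniatin B and phenylalanine in beauvericin. Between the toxins 2 pairs were compared, and 0 members passed limma in each, where 0% of all rows were called. Adjustment was over all rows within each pair. At the low dose the members' median difference, enniatin B minus beauvericin, was 0.17. Estimates were above 0 for 73 of 100 and below 0 for 27, where 50.7% of all rows were below 0. The 7 unadjusted p under 0.05 stand against 3.99% of all rows. The smallest p was that of LOC106565189 (0.88 ± 0.26, limma adjusted p = 0.81), followed by GeneID106592871 (0.59 ± 0.20) and GeneID106579682 (0.999 ± 0.378). For the high doses the median was 0.04, with 59 of 100 above 0 and 41 below, where 49.9% of all rows were below 0. The 6 unadjusted p under 0.05 stand against 10.3% of all rows, a larger share, and tank, an adaptor of NF-kappa B signalling, had the smallest p (0.89 ± 0.32, limma adjusted p = 0.36). LOC100217346 (-0.70 ± 0.27) and LOC106573821 (0.45 ± 0.18) came next. EdgeR, DESeq2 and voom gave 0 members in both, and the shares of all rows they called are not given here. These p-values are no evidence of equal action. Judged by the 95% interval, a difference of more than 1 log2 unit in either direction was outside the interval for 79 members in the low-dose pair and for 81 in the high-dose pair, and inside it for the rest.

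Between doses of the same toxin, 0 members passed limma and 0% of all rows were called. EdgeR, DESeq2 and voom also gave 0 members, with their shares of all rows not given here. For enniatin B the median difference, high minus low, was 0.29. Estimates were above 0 for 92 members and below 0 for 8, where 49.4% of all rows were below 0. An unadjusted p under 0.05 was seen for 8, against 3.06% of all rows. LOC106602333 (0.46 ± 0.14), LOC106564359 (0.72 ± 0.28) and GeneID106589295 (0.78 ± 0.32) had the smallest p. For beauvericin the median difference was 0.46. Estimates were above 0 for 80 and below 0 for 20, where 49.6% of all rows were below 0. An unadjusted p under 0.05 was seen for 29, against 3.8% of all rows. LOC106573055 had the smallest p of the latter (0.90 ± 0.21, limma adjusted p = 0.65), with 306 to 564 normalized counts at the high dose and 196 to 284 at the low dose, so that the groups did not overlap. LOC106565994 (0.98 ± 0.26) and LOC106585259 (0.79 ± 0.23) came next.

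A few members followed the reference genes within groups without a lower estimate after low beauvericin. In that comparison 7 had an estimate above 0, and none passed. They were mknk1 (0.74 ± 0.40), GeneID106585962 (0.44 ± 0.27), foxo3b (0.31 ± 0.25), kiaa1191 (0.20 ± 0.22), LOC106603296 (0.12 ± 0.13), LOC106578123 (0.08 ± 0.19) and adrm1 (0.06 ± 0.11). Of these 7, all but foxo3b and mknk1 had estimates above 0 in all 4 exposed groups. The ranks of the 7 by r ran from 66 to 100. With 1 library left out, mknk1 and LOC106603296 were kept in 11 of 29 selections, GeneID106585962 in 21 and the others in 26 to 29. Over 27 intestine libraries their r ran from -0.34 (GeneID106585962) to 0.15 (foxo3b). Adrm1, a ubiquitin receptor of the proteasome, had 850.3, 940.0 and 1063 normalized counts in control and 955, 886, 1009, 987 and 1067 after low beauvericin. Its 95% interval was -0.17 to 0.30. Mknk1 had 623 to 1332 in control and 3305, 1059, 2045, 1147 and 1118 after low beauvericin, and 5486 in replicate 5 of high enniatin B against a group median of 1157.

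The intestine libraries were not used by the rule and gave a second look at the same measure. Over 27 intestine libraries, without controls 5 and 6, the members' median r to the same 3 genes was 0.41, against 0.03 over the 24509 rows measured well enough in both tissues. With all 29 libraries it was 0.52 against 0.01. In 27 libraries 39 members had r over 0.5, against 3.28% of those rows, and 19 had r below 0. In 29 libraries 51 had r over 0.5, against 12.8% of rows. A positive r in intestine was not particular to red cell genes. Over 27 libraries the list medians were 0.70 for hemoglobin and 0.44 for membrane genes. They were 0.31 for neutrophil and macrophage, 0.27 for endothelial, 0.22 for T and B cell and 0.20 for thrombocyte genes. Heme and iron genes had -0.07, and red cell enzymes -0.30. The mean of the 100 genes followed the mean of the 3 reference genes with Pearson r = 0.81 and Spearman rho = 0.74 over 27 libraries, and with r = 0.75 without the 2 libraries farthest from the median. All these values are descriptions across libraries that share a normalization and a tissue. Control 4, which stayed among the 27, had their highest mean of the 3 reference genes. It was 6.56 on the log2 scale, against 4.98 to 5.48 in controls 1 to 3. How far the r of single members over 27 libraries rests on control 4 is not given here.

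How well a member followed in intestine went with how much lower its level was there. Levels of the set were higher in liver than in intestine by a median of 1.41 log2 units, against -0.06 over all rows. These differences are on the deposited scale and are not shares of a library. Deposited totals were 45.7 to 64.0 M per liver library and 19.5 to 24.2 M per intestine library. For 42 members the difference was over 2, against 8.05% of rows. Their median intestinal r was 0.63, and 33 of the 42 had r over 0.5. Among the other 58 the median was 0.24, 6 had r over 0.5 and 18 had r below 0. The 7 neighbours with the globins had differences of 3.54 to 3.86 and intestinal r of 0.544 to 0.797. Hsc70 (0.64), kel (0.62), nmes1 (0.55), tmod4 (0.52) and tssp (0.76) were also liver-high and followed in intestine. The Rh protein rhd (0.37) and adb4c (0.40) were liver-high with r below 0.5, and the liver-high LOC106602333 had -0.04. Lpin2, with a mean of 1661 normalized counts in intestine and 376 in liver, had 0.36. Selja (-0.31), ubxn4 (-0.25) and kiaa1191 (-0.09) did not follow there. The member with the lowest intestinal r, LOC100195531 at -0.55, had a mean of 5621 in intestine and 248 in liver.

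**Figure D5:**
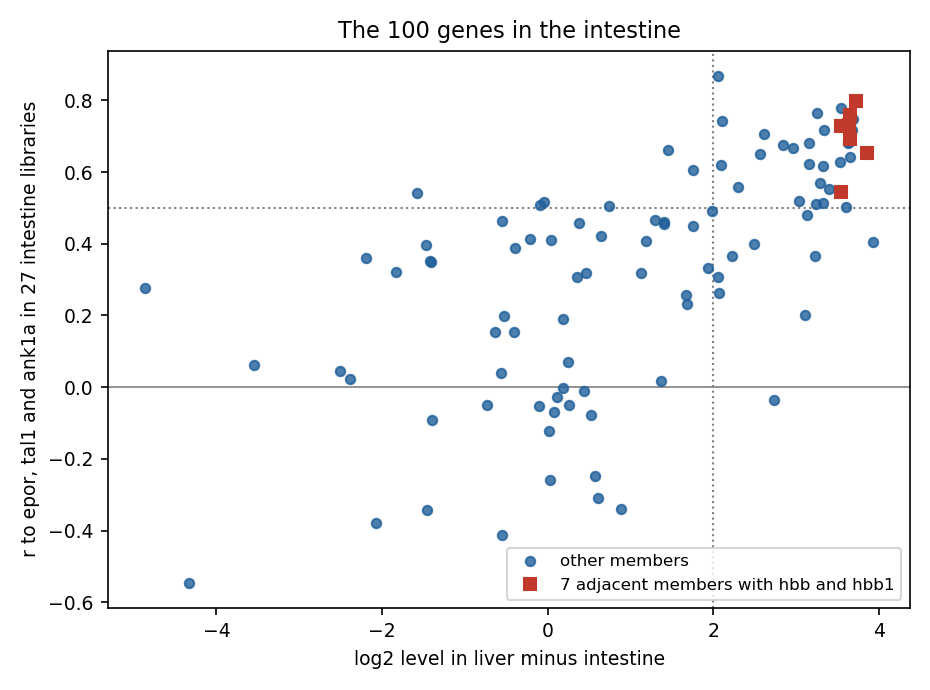
Each of the 100 genes by its log2 level in liver minus intestine (horizontal axis) and its r to epor, tal1 and ank1a over 27 intestine libraries (vertical axis, no unit). Squares are the 7 adjacent members with hbb and hbb1, and dotted lines mark a difference of 2 and an r of 0.5. Of 42 genes right of the line 33 lie above 0.5, and of 58 left of it 6 do.

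The 42 liver-high members and the other 58 were also set side by side in the liver comparison with control. After low beauvericin 10 of the 42 and 10 of the 58 were past the limma threshold, against 0.127% of all rows. The median differences were -1.07 and -0.85. Estimates were below 0 for 42 of 42 and 51 of 58. The grouping was made after the values were seen and was not tested.

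In intestine no member passed limma against control in any exposed group, with all 29 libraries or without controls 5 and 6. Rows called with all libraries were 0% after low and after high enniatin B, 0.0156% after low beauvericin and 0.00391% after high beauvericin. Unadjusted p under 0.05 were seen for 18, 14, 29 and 17 of the 100 members, in the same order, and for 17.5%, 17.7%, 18.7% and 16.9% of all rows. Apart from the 29 after low beauvericin, these counts were near or below the share of all rows. Counts by other tools were not computed for intestine. The members' medians were -0.30 and -0.17 for low and high enniatin B and -0.34 and -0.20 for low and high beauvericin. Without controls 5 and 6 they were -0.05, -0.02, -0.18 and 0.00 over the 98 members that stayed in the fit, with 4, 5, 5 and 3 unadjusted p under 0.05. All rows gave 6.96%, 9.43%, 8.18% and 4.67%, so the members' counts lay below that share in each. In control the intestinal means of the 100 genes were 6.83, 6.57, 6.63 and 7.51 in replicates 1 to 4 and 7.26 and 7.77 in replicates 5 and 6. Control 4 was thus as high as the controls that stood apart. For the globin LOC100136576 control counts ran from 788 to 5552, and those of the exposed groups from 609 to 3700. The difference between the liver and intestine responses was not tested. Over 27 numbers present in both tissues, without controls 5 and 6, the within-group r of the member mean between liver and intestine was -0.18, and the labels do not say whether a number is the same fish.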

How the data were processed

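Total RNA (QIAzol, EZ1 kit) was enriched on oligo(dT) beads and read as 150 bp pairs on an Illumina NovaSeq, per the labels' protocols. Trim Galore 0.4.2, FastQC, HISAT2, featureCounts of Subread and DESeq2 1.18.1 were used, per the submitters' processing notes. The authors' genome build is not given in the sources used here. Coordinates are left out for that reason. Values of the deposited table (unit: signal) are normalized counts, in which the reads of a library are divided by a common factor. Multiplied back, 99.9999% of values lie within 0.1 read of a whole read (largest distance 0.165). The file holds 26239 rows by GeneID, of which 24184 matched the reference Ssal_v3.1, used for names and for which genes neighbour each other. No sequences are printed.

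Limma (trend, robust) was fitted to log2 of value plus 2 with all 29 libraries of a tissue and treatment as the only term, and Benjamini-Hochberg adjustment ran over all 25157 liver rows (25601 in intestine) at 0.05. Fold changes are on that scale and understate the change of low genes. Reads recovered from the deposited values were tested with edgeR, DESeq2 and voom. R 4.3.3 was used with DESeq2 1.42.0, edgeR 4.0.16 and limma 3.58.1. The limma test and the selection were tested on simulated data. The counts simulated for limma were drawn for each gene separately, without the shared variation of the members. That run therefore cannot show how calls behave among genes that vary together.

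The members and the gene lists were chosen with earlier results of these data known. Named are the 20 members with a name and the highest r, members on the lists, up to 5 members past the threshold with the smallest p in each direction or else the 3 smallest (further ones were added after their values were seen), and the 2 genes on each side of the limit. Lists were matched by symbol, since the reference holds no product names. Apart from hemoglobin rows with a synonym, rows with only a LOC number are therefore missing from them. No 2 libraries were identical, and the lowest chi-square per degree of freedom within a group was 28.6. Same-numbered liver libraries of different groups did not vary together (56 pairs, median r 0.0062, 7 over 0.1), so the number was not taken as a pairing.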

Additional observations from a re-analysis of the deposited data

Results flagged for a closer look

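Libraries far from the others of their group were sought in 160 groups, for the member mean and the mean of the reference genes in both tissues and for 28 members in liver, and 7 were found. Chance alone gives about 1 in 20, so 7 of 160 is no more than chance would give. The members were chosen because they vary together, so several flags in 1 library are not separate observations. Of these 7, 4 are the same library, replicate 5 of high enniatin B, which had the highest value of its group for GeneID106570025 (2230.2 normalized counts), LOC106589417 (324), tmem43 (1111) and mknk1 (5486). The receptor gene adb4c was high in control 1 (115) and adrm1 in replicate 1 of high beauvericin (1135). LOC100196543 was low in replicate 2 of low beauvericin (105), the library without which the count of members past the threshold drops to 2.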

How the results depend on the processing

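The members lower after low beauvericin numbered 20 with a pseudocount of 1 or 8, 19 without a filter and 21 with only the groups compared. They numbered 14 in edgeR, 37 in DESeq2 and 9 in voom, which was added after seeing the data. These tools called 0.0835%, 0.318% and 0.0676% of all rows. Leaving out 1 library gave 1 to 25. Shares of all rows are not given for the settings other than these tools, so those counts cannot be set against all rows. For the mean of the exposed groups the count of 7 became 6 with a pseudocount of 1 and 0 without a filter. It became 15 in DESeq2 (0.0914% of all rows), 11 in voom (0.0596% of all rows) and 0 to 13 with 1 library left out. After low enniatin B the count of 0 became 3 in DESeq2, which called 0.0199% of all rows. The cause of these shifts was not tested. With the replicate number as a block (replicate block), the counts were 29 for low beauvericin, 14 for the mean of exposed groups and 1 for low enniatin B, and 47 members were chosen again; only 3 of 29 libraries correlated best with their own number. Repeated selections kept 99 members with a pseudocount of 1 or 8, 96 with a stricter filter, 75 with Spearman's rho, 74 without subtracting group means, 97 on TMM-scaled log2 CPM and 76 to 99 with 1 library left out. The intestinal median r of 0.52 became 0.41 without controls 5 and 6, and was 0.45 to 0.55 with 1 library left out. Of 1141 results of named members under other settings, 118 no longer passed, 3 newly passed and 0 reversed. The count of 0 in the other liver and intestine comparisons was 0 under every setting run. Of 2900 member values in liver, 31 rested on fewer than 10 reads; how depth limits the calls was not tested.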
